A study of Mus musculus with 16 samples.

Results

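Metalloproteinases of the MMP, ADAM and ADAMTS families, the related ADAMTS-like proteins and their tissue inhibitors (TIMP) were followed in brain endothelial cells that carry human *APOE3* or *APOE4*. Members were all protein-coding genes whose symbol is Mmp, Adam or Adamts with a number, Adamtsl with a number, or Timp1 to Timp4. The rule used names only and no measured value. It found 83 genes among the 39057 rows of the count table, namely 33 ADAM, 19 ADAMTS and 5 ADAMTS-like genes, 22 MMP genes and 4 TIMP genes.

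RNA was sequenced from 16 primary cortical cultures, 8 per genotype. The *APOE3* and *APOE4* mice are targeted replacement lines, in which the human gene is expressed from the promoter of mouse Apoe in every cell type that uses it. Each culture came from 1 animal, 4 male and 4 female per genotype, aged 21 to 28 days by the labels and 28 days by the methods. All cultures were selected with puromycin (8 µg/ml) against other brain cells and were otherwise untreated, so both groups share the selection. No culture with the mouse gene was analysed here.

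Most of these enzymes hold a zinc ion in the active site and are made as inactive precursors. MMPs cut collagens, laminins and other matrix proteins, the membrane-bound ADAMs release the outer parts of receptors, adhesion molecules and cytokines, and ADAMTS proteases cut proteoglycans. TIMPs block the active site, and in brain vessels this balance bears on the basement membrane and on the tightness of the blood-brain barrier.

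Total counts were 12717847 to 18624417 per library, and the members together took 0.308% to 0.446% of them. Each of the 22 brain endothelial markers was detected, with Pecam1 at 3408 to 3805 CPM (counts scaled to the normalized size of the library), although Mfsd2a, a lipid transporter of the barrier, was at only 2.43 to 4.92 CPM. Markers of other cells were low. The 14 pericyte and smooth muscle markers summed to 193 to 362 CPM in *APOE3* and 227 to 345 CPM in *APOE4* libraries, mostly from Tagln and Acta2. Of the pericyte markers, Cspg4 had 2.81 to 14.3, Pdgfrb 1.54 to 8.36 and Anpep 2.73 to 6.15 CPM, and Rgs5, Kcnj8 and Higd1b stayed under 1 CPM. The 13 fibroblast markers summed to 14.4 to 67.4 CPM in *APOE3* and 11.2 to 88.2 CPM in *APOE4*, the 11 microglia and macrophage markers to 6.05 to 7.60 and 5.38 to 7.94 CPM, nearly all from Cd68, while C1qa, Itgam and P2ry12 were at 0 in all 16 libraries. The 8 astrocyte markers summed to 34.0 to 44.5 and 35.2 to 45.1 CPM, mostly from Gja1, with Gfap and Aqp4 under 1 CPM. The 9 oligodendrocyte lineage markers summed to 28.1 to 41.7 and 34.9 to 45.9 CPM, mostly from Cnp, with Olig1 and Olig2 at 0, and the 8 neuron markers to 8.91 to 12.8 and 10.8 to 15.6 CPM. Among the lists of other cells Cnp was the only gene called (log2 fold change 0.23, SE 0.0563, edgeR adjusted p = 0.0143). Of the 22 brain endothelial markers, 1 was called higher and 2 lower in *APOE4*, beside 6.71% and 6.09% of all genes. None of the 13 tested pericyte, smooth muscle or fibroblast markers differed between genotypes at an adjusted p under 0.05 with edgeR. At an unadjusted p under 0.05 there were 3 (Anpep, Myh11 and Col3a1, each with a higher mean in *APOE4*), beside 29% of all genes. Human APOE itself had 1003 to 1425 CPM in *APOE3* and 609 to 1013 CPM in *APOE4* libraries.

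Of the 83 members, 21 had no count in any library, 53 exceeded 3 counts in at least 1 library and 38 passed the filter on low counts and were tested. The inflammatory gelatinase Mmp9 had 1 count in 1 of the 8 *APOE3* libraries and 11 counts in 4 of the 8 *APOE4* libraries, at most 5 in a library. The stromelysin Mmp3 had 3 counts in 2 *APOE3* libraries and 15 counts in 6 *APOE4* libraries, 7 of them in *APOE4* replicate 43. Both had more counts in *APOE4*, at a level too low for the filter, and when edgeR was run without it neither passed (unadjusted p = 0.0115 and 0.0282, adjusted p = 0.116 and 0.192). Many of the untested genes sit together. The 9 Mmp genes on chromosome 9 between 7272514 and 7699585 (GRCm38) gave 43 counts over all libraries and none was tested. On chromosome 8, 12 Adam genes between 24602246 and 55906948 that were not tested gave 114 counts. The highest count of any untested member was 14, for Mmp23.

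Per kilobase of exon, the scale on which genes can be compared, Timp3 was the highest of the 38 tested members, at 165 CPM per kb over all libraries. It accounted for 26.6% of their summed level per kb. Adam15 followed at 94.7, Adamts1 at 86.5 and Adam10 at 48.5 CPM per kb. The highest MMP was Mmp28, epilysin, at 18.4, ahead of the membrane-bound Mmp15 and Mmp14 at 12.8 and 9.12, and the gelatinase Mmp2 reached only 1.06 CPM per kb.

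**Figure D1:**
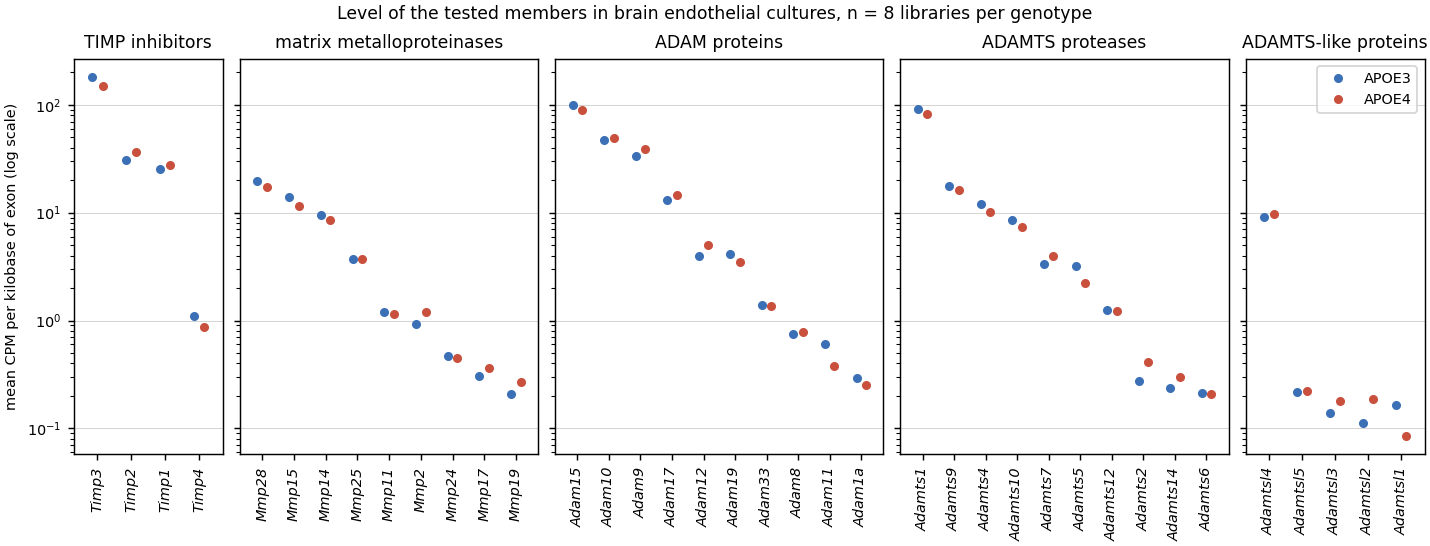
Mean level of each tested member in CPM per kilobase of exon on a log axis, by family, with 1 blue point for *APOE3* and 1 red point for *APOE4* (mean of 8 libraries each). Timp3, Adam15 and Adamts1 lead their families, while the ADAMTS-like genes other than Adamtsl4 lie below 1.

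Genotypes were compared to ask which of these genes differ between *APOE3* and *APOE4* cultures. Isoform, mouse line and level of human APOE RNA cannot be told apart in this comparison. In *APOE4* brain endothelial cells, 3 members were higher (Adam9, Adam17 and Timp2) and 6 were lower (Adam11, Adamts10, Adamtsl1, Mmp15, Mmp28 and Timp3). These 9 are 23.7% of the 38 tested, beside 12.8% of all 12481 genes tested. The higher calls compare with 6.71% of all genes and the lower calls with 6.09%. Calls are adjusted p-values under 0.05 by the quasi-likelihood F test of edgeR, adjusted by the Benjamini-Hochberg method across all of these genes. At an unadjusted p under 0.05 there were 14 members, beside 29% of all genes. Without a filter on low counts 3 were again higher and 6 lower, beside 5.74% called among all 22474 genes with a count. The called changes lay between -0.29 and 0.23 on the log2 scale except for the scarce Adam11 (-0.67) and Adamtsl1 (-0.95). The genotypes overlapped in all 38 members, and 0.625% of all genes had no overlap. The median log2 fold change of the members was -0.02, against -0.00022 over all genes tested. In bulk RNA, fewer cells of a type and less RNA per cell cannot be told apart.

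With 1 library left out at a time, the calls of Adam9, Adam11, Adam17, Adamts10 and Timp3 held in all 16 fits. The number of lower members fell to 3 without *APOE3* replicate 30, *APOE4* replicate 35 or *APOE4* replicate 41, and otherwise lay between 4 and 8. The shares of all genes called in these fits are not given here, so the drop cannot be called particular to the members.

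**Figure D2:**
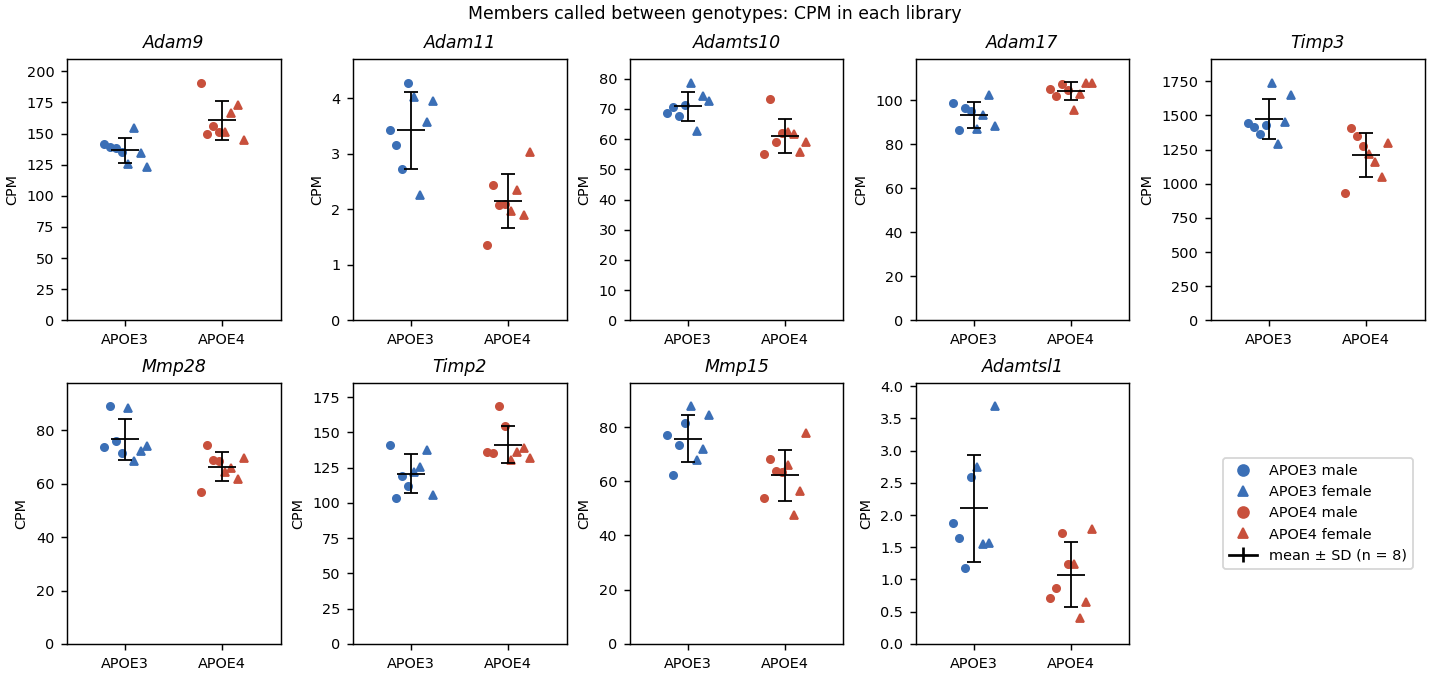
CPM of the 9 called members in each library (circles male, triangles female), with the mean ± SD of the 8 libraries of each genotype. The points of the genotypes overlap in every panel, and Timp2, Adam9 and Adam17 are higher in *APOE4* libraries while the other 6 are lower.

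The inhibitors moved in opposite directions. Timp3 (ENSMUSG00000020044.13, chromosome 10 from 86300372 to 86349506) binds to the extracellular matrix and blocks ADAM17 and the aggrecan-cutting ADAMTS enzymes as well as MMPs. It had a lowest, median and highest level of 1289, 1439 and 1738 CPM in *APOE3* and of 931, 1248 and 1411 CPM in *APOE4* libraries. All 8 *APOE4* libraries lay below the *APOE3* median, yet the ranges overlapped, and replicate 35 was the lowest. The mean fell from 1473 ± 147 to 1212 ± 160 CPM (SD, n = 8; log2 fold change -0.28 with an SE of 0.0747 and an adjusted p of 0.0200). Syn3 lies on the opposite strand over 21.3% of the exon bases of Timp3, and it had 1152 counts against 335434 for Timp3. The strand setting of the counting is unknown here, and an effect of the overlap was not tested.

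Timp2 (ENSMUSG00000017466.9, chromosome 11 from 118301069 to 118355740), which also takes part in activating MMP2 at the cell surface together with MMP14, ranged from 103 to 141 CPM (median 120) in *APOE3* and from 130 to 168 CPM (median 136) in *APOE4* libraries. All 8 *APOE4* libraries were above the *APOE3* median, and *APOE3* replicates 25 and 32 reached into their range. The mean rose from 121 ± 13.7 to 141 ± 13.2 CPM (log2 fold change 0.23 with an SE of 0.0649 and an adjusted p of 0.0275). The call was lost without *APOE3* replicate 26, 28, 30 or 33 or without *APOE4* replicate 37, where the adjusted p was 0.0560, 0.0537, 0.0508, 0.0585 and 0.0516.

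Set against Timp3 in the same library, Timp2 gave 6.43 to 9.76 reads per 100 Timp3 reads in *APOE3* libraries (median 8.27) and 9.62 to 14.6 in *APOE4* libraries (median 11.9). This ratio was formed after the levels had been seen and was not tested. Timp1, an inhibitor induced by cytokines, spread widely in both genotypes, from 17.7 to 38.1 CPM in *APOE3* and from 13.2 to 38.9 CPM in *APOE4* libraries (log2 fold change 0.12 with an SE of 0.182 and an adjusted p of 0.6998). Timp4, the scarcest of the 4, had 6.47 ± 1.54 and 5.14 ± 0.585 CPM (log2 fold change -0.33 with an SE of 0.123 and an adjusted p of 0.0775).

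Among the ADAMs, the sheddases Adam9 and Adam17 were higher. Adam17 (ENSMUSG00000052593.15, chromosome 12 from 21323509 to 21373632), which releases tumor necrosis factor from the membrane, ranged from 86.2 to 103 CPM (median 94.1) in *APOE3* and from 95.7 to 108 CPM (median 105) in *APOE4* libraries. All *APOE4* libraries exceeded the *APOE3* median and 7 of them were above every *APOE3* library but replicate 32. The mean rose from 93.4 ± 5.96 to 104 ± 4.09 CPM (log2 fold change 0.16 with an SE of 0.0383 and an adjusted p of 0.0143). Iah1 lies on the opposite strand over 4.35% of the exon bases of Adam17, with 3468 counts against 24681 for Adam17. An effect of this overlap was not tested.

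Adam9 (ENSMUSG00000031555.15, chromosome 8 from 24949611 to 25016927) ranged from 123 to 155 CPM (median 137) in *APOE3* and from 145 to 191 CPM (median 154) in *APOE4* libraries. The overlap came from *APOE3* replicate 31, the other 7 *APOE3* libraries lying below every *APOE4* library. The mean rose from 137 ± 9.83 to 160 ± 15.4 CPM (log2 fold change 0.23 with an SE of 0.0544 and an adjusted p of 0.0117).

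Adam11 (ENSMUSG00000020926.16, chromosome 11 from 102761439 to 102780262), an ADAM without protease activity that is known from neurons, was scarce. It had 2.25 to 4.28 CPM (median 3.51) in *APOE3* and 1.35 to 3.04 CPM (median 2.09) in *APOE4* libraries, or 17 to 71 counts. No *APOE4* library reached the *APOE3* median, and the log2 fold change was -0.67 (SE 0.157 with an adjusted p of 0.0119).

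Adam10, which cuts Notch receptors and the amyloid precursor protein, had 232 ± 11.7 and 244 ± 8.69 CPM (log2 fold change 0.07 with an SE of 0.0343 and an adjusted p of 0.178). Adam15, an ADAM of endothelial junctions, had 611 ± 60.2 and 553 ± 47.4 CPM (log2 fold change -0.14 with an SE of 0.0604 and an adjusted p of 0.119). Without *APOE3* replicate 26 its adjusted p was 0.0437. Antisense transcript 4731419I09Rik covers 20.6% of its exon bases, and whether strand was used in counting is not given in the sources used here. Adam12, meltrin alpha, had 41.8 ± 7.96 and 52.9 ± 10.1 CPM (log2 fold change 0.34 with an SE of 0.117 and an adjusted p of 0.0613) and passed the threshold with sex as a covariate (adjusted p = 0.0416), with DESeq2 (adjusted p = 0.0330) and without *APOE3* replicate 25, *APOE4* replicate 36 or *APOE4* replicate 43 (adjusted p = 0.0371, 0.0336 and 0.0447). Of Adam1a, 63.7% of the exon bases are shared with Gm42878 on the same strand, so its count is uncertain.

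The 2 called MMPs were both lower. Mmp28 (ENSMUSG00000020682.17, chromosome 11 from 83440768 to 83463071), a secreted MMP, ranged from 68.4 to 88.9 CPM (median 73.9) in *APOE3* and from 56.8 to 74.7 CPM (median 67.3) in *APOE4* libraries. A single *APOE4* library, replicate 36, passed the *APOE3* median. The mean fell from 76.6 ± 7.69 to 66.3 ± 5.46 CPM (log2 fold change -0.21 with an SE of 0.0592 and an adjusted p of 0.0272). On the opposite strand, 1700020L24Rik covers 12% of the exon bases of Mmp28, with 54 counts against 17848 for Mmp28, and an effect was not tested. The adjusted p was 0.0572, 0.0640, 0.0518 and 0.0616 without *APOE3* replicate 26, *APOE3* replicate 30, *APOE4* replicate 35 and *APOE4* replicate 41, and 0.0678 after correction for GC content and transcript length.

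Mmp15 (ENSMUSG00000031790.8, chromosome 8 from 95352268 to 95375080), a membrane-type MMP, ranged from 62.3 to 87.6 CPM (median 75.2) in *APOE3* and from 47.7 to 77.8 CPM (median 63.7) in *APOE4* libraries. The ranges overlapped widely, with 1 *APOE4* library above the *APOE3* median. The mean fell from 75.7 ± 8.58 to 62.1 ± 9.33 CPM (log2 fold change -0.29 with an SE of 0.0835 and an adjusted p of 0.0306). The call was lost without *APOE3* replicate 28, 30 or 33 (adjusted p = 0.0585, 0.0714 and 0.0664), without *APOE4* replicate 35, 40 or 41 (0.0592, 0.0543 and 0.0680) and after correction for GC content and transcript length (0.0736).

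The other membrane-type enzymes did not pass the test. Mmp14, the main activator of proMMP2, had 57.3 ± 6.66 and 51.4 ± 11.5 CPM (log2 fold change -0.15 with an SE of 0.107 and an adjusted p of 0.360), and Mmp25 had 19.8 ± 2.25 and 19.9 ± 1.93 CPM (adjusted p = 0.953). Mmp2 had 3.11 ± 1.65 and 4.02 ± 1.67 CPM (log2 fold change 0.37 with an SE of 0.284 and an adjusted p of 0.415).

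Of the 10 tested ADAMTS proteases, Adamts10 alone was called. Adamts10 (ENSMUSG00000024299.16, chromosome 17 from 33524204 to 33553782), which acts on fibrillin microfibrils, ranged from 62.7 to 78.7 CPM (median 71.0) in *APOE3* and from 55.0 to 73.2 CPM (median 60.3) in *APOE4* libraries. The highest *APOE4* value, in replicate 36, stood apart from the next at 62.2 CPM. The mean fell from 70.8 ± 4.75 to 61.0 ± 5.67 CPM (log2 fold change -0.22 with an SE of 0.0531 and an adjusted p of 0.0140).

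The aggrecanases Adamts1, Adamts4 and Adamts5 and the vascular protease Adamts9 had negative log2 fold changes of -0.17 (SE 0.142), -0.26 (SE 0.156), -0.51 (SE 0.210) and -0.10 (SE 0.113), and none passed the test (adjusted p = 0.460, 0.289, 0.109 and 0.587). Their spread between cultures was wider in *APOE4*, a difference that was not tested. The coefficient of variation of Adamts4 was 16.8% in *APOE3* and 34.4% in *APOE4*, and that of Adamts1 was 16.5% and 28.2%. *APOE4* replicate 43 was the highest library for Adamts4 at 84.4 CPM, and without it Adamts4 had a log2 fold change of -0.42 (adjusted p = 0.0275) and Adamts5 of -0.71 (adjusted p = 0.0149).

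The ADAMTS-like proteins lack the protease domain and bind to the matrix. Adamtsl1 (ENSMUSG00000066113.16, chromosome 4 from 85514172 to 86428385) had 1.18 to 3.69 CPM (median 1.76) in *APOE3* and 0.404 to 1.79 CPM (median 1.05) in *APOE4* libraries. Although 1 *APOE4* library passed the *APOE3* median, the log2 fold change was -0.95 (SE 0.279 with an adjusted p of 0.0315), on 398 counts in all. The adjusted p was 0.0591, 0.0695 and 0.0767 without *APOE3* replicates 28, 30 and 33, and 0.0585, 0.0555 and 0.0714 without *APOE4* replicates 35, 40 and 41. Adamtsl4, the most abundant of the 5, had 38.3 ± 2.69 and 40.8 ± 4.36 CPM (log2 fold change 0.09 with an SE of 0.0622 and an adjusted p of 0.349). Adamtsl2, Adamtsl3 and Adamtsl5 had means of 0.892 to 1.49 CPM and log2 fold changes of 0.72 (SE 0.293), 0.38 (SE 0.302) and 0.04 (SE 0.360), none of which passed the test.

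**Figure D3:**
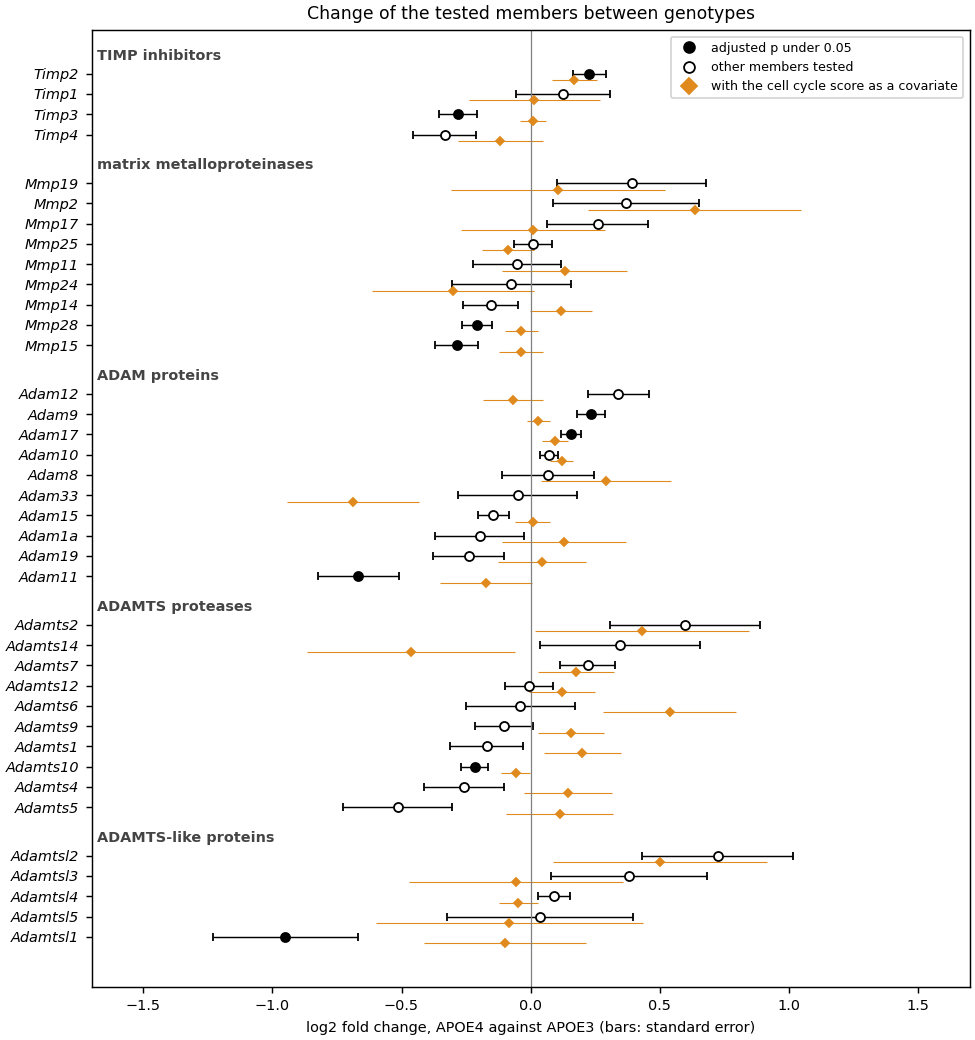
Log2 fold change of each tested member, *APOE4* against *APOE3*, with its standard error (circles, filled where the adjusted p is under 0.05), and the same after the cell cycle score was added as a covariate (orange diamonds with their standard error). Without the covariate 9 members are called, and with it Timp3 sits at 0.01 and none is called.

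Some of the called members moved with proliferation genes. A cell cycle score, the mean log2 CPM of 27 proliferation genes such as Mki67 and Top2a, ran from 5.19 to 6.28 in *APOE3* and from 5.99 to 6.80 in *APOE4* libraries, and 25 of the 27 genes were called higher in *APOE4*. Within each genotype, where the genotype cannot enter, Timp3 was lower in cultures with a higher score (Pearson r = -0.952 in *APOE3* and -0.935 in *APOE4*, n = 8 each, exact permutation p = 0.00136 and 0.00107). Over the 152 relations computed, 38 members against 2 scores in 2 genotypes, both had a Benjamini-Hochberg adjusted exact permutation p of 0.0296. Spearman's rho was -0.762 and -0.905 (exact permutation p = 0.0368 and 0.00456, adjusted 0.254 and 0.157). Without the 2 libraries farthest from the median score, r was -0.930 and -0.694.

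Adam9 went the other way, with r = 0.913 in *APOE3* and 0.919 in *APOE4* cultures (n = 8 each, exact permutation p = 0.00394 and 0.00119, adjusted 0.0599 and 0.0296; rho 0.738 and 0.810, exact permutation p = 0.0458 and 0.0218, adjusted 0.303 and 0.184). Without the 2 farthest libraries r was 0.742 and 0.644. Mmp28 was related to the score in *APOE4* (r = -0.936, exact permutation p = 0.000546, adjusted 0.0277, rho -0.905, p = 0.00456, adjusted 0.157, n = 8; r = -0.769 without the 2 farthest libraries), and its r in *APOE3* was -0.531 (exact permutation p = 0.160). Timp2 and Adam17 had r from -0.02 to 0.545 (n = 8, exact permutation p from 0.168 to 0.965). In all, 27 of the 152 relations had an exact permutation p under 0.05, 8 passed after adjustment with Pearson's r and 0 with Spearman's rho. The share of all genes related to either score is not given here, so these relations cannot be called particular to the members. Besides those of Timp3 in both genotypes and of Adam9 and Mmp28 in *APOE4*, the 8 were Adam11 (r = -0.887), Adam12 (r = 0.973) and Mmp25 (r = 0.968) with the cell cycle score in *APOE4*, and Timp1 with a score of pericyte, smooth muscle and fibroblast markers. Their r in *APOE3* was -0.827 for Adam11, 0.582 for Adam12 and -0.066 for Mmp25 (n = 8 each, adjusted exact permutation p = 0.125, 0.481 and 0.938).

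When the score entered the model, none of the 38 members and 0% of all genes tested were called. An unadjusted p under 0.05 was found for 3 members (Adam10, Adam33 and Adamts6), and the share of all genes at that threshold is not given here. The log2 fold change of Timp3 went from -0.28 to 0.01 (SE 0.0509), that of Adam9 from 0.23 to 0.03 (SE 0.0445) and that of Mmp28 from -0.21 to -0.04 (SE 0.0638). Timp2 retained 0.17 (SE 0.0880) and Adam17 retained 0.10 (SE 0.0501). The score itself differs between the genotypes, so genotype and the score cannot be fully told apart in these cultures. The score is made from RNA levels only. In its own assays the paper reported no genotype difference in cell density or in bromodeoxyuridine-labelled nuclei at confluence.

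**Figure D4:**
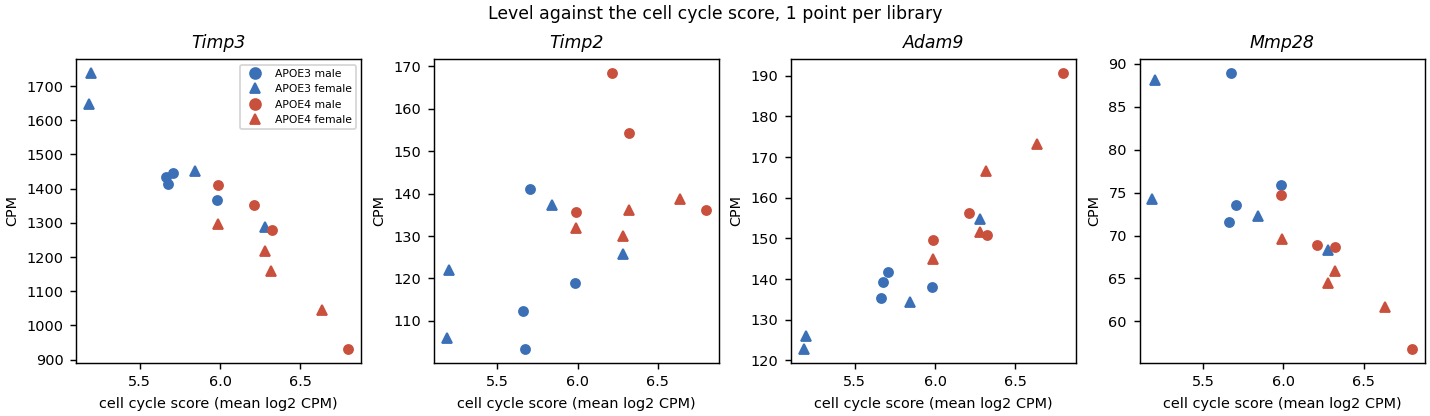
CPM of Timp3, Timp2, Adam9 and Mmp28 against the cell cycle score of the same library (mean log2 CPM of 27 genes), blue for *APOE3* and red for *APOE4*, circles male and triangles female. Within each genotype Timp3 is lower at higher scores (from 1289 to 1738 CPM in *APOE3* and from 931 to 1411 CPM in *APOE4* libraries) and Adam9 is higher (123 to 155 and 145 to 191 CPM), while Timp2 scatters.

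By Pearson's r, Timp1 was related to markers of other cells in *APOE4* cultures. A score of 13 tested pericyte, smooth muscle and fibroblast markers correlated with Timp1 within *APOE4* (r = 0.922, exact permutation p = 0.00112, adjusted 0.0296; rho 0.881, exact permutation p = 0.00724, adjusted 0.157, n = 8) and had r = 0.764 in *APOE3* cultures (exact permutation p = 0.0323, adjusted 0.217; rho 0.714, p = 0.0576, adjusted 0.337, n = 8). Without the 2 libraries farthest from the median score these were 0.833 and 0.323, so the relation in *APOE3* rested on those libraries. For Mmp2 the same score gave r = 0.502 and 0.589 (n = 8, exact permutation p = 0.204 and 0.117).

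Both sexes were used in each genotype. Of the 38 members, none was called within males, where 7 had an unadjusted p under 0.05 beside 14.2% of all genes, and none within females, where 12 did beside 19.5%. In each sex 0% of all genes tested were called with edgeR, with 4 libraries per group. The genotype effect differed between the sexes in none by adjusted p, beside 0% of all genes, and 2 members had an unadjusted p under 0.05 for this difference, beside 2.76% of all genes. Adam12 had a log2 fold change of 0.13 (SE 0.141) in males and 0.59 (SE 0.143) in females, a difference of 0.46 (SE 0.200 with an adjusted p of 1.000). Adamts7 had 0.0034 (SE 0.131) and 0.46 (SE 0.133), a difference of 0.46 (SE 0.186).

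Timp3 had a log2 fold change of -0.19 (SE 0.107 with an adjusted p of 0.437) in males and -0.38 (SE 0.107 with an adjusted p of 0.0891) in females, and the difference of -0.19 (SE 0.152) did not pass the test. Within females, DESeq2 called 4 members, namely Adam12 and Adamts7 higher and Adamts10 and Timp3 lower, as did edgeR without a filter on low counts, beside 3.35% and 1.63% of all genes in the same fits. With edgeR, 5 were called in females without *APOE3* replicate 31, beside 6.99% of all genes, and 2 without *APOE4* replicate 35, beside 2.08%. Within males, for the difference between the sexes, and between the sexes, DESeq2 called 0 members. Between the sexes, with genotype in the model, edgeR called no member, beside 0.0721% of all genes. An unadjusted p under 0.05 was found for 3 members, and the share of all genes at that threshold is not given here. Mmp2 had the smallest p, with 4.58 ± 1.73 CPM in males and 2.54 ± 0.788 CPM in females (n = 8, log2 fold change female against male -0.86, SE 0.221, edgeR adjusted p = 0.761).

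The wider pathway was described from lists of related genes, which were chosen with earlier results of these data known. Each list was judged by its counts beside the 12.8% called among all genes, 6.71% higher and 6.09% lower. Of 13 tested genes that activate MMPs and ADAMs, 4 were called. The cathepsin Ctsl fell (log2 fold change -0.16 with an SE of 0.0325 and an adjusted p of 0.00643), as did the proprotein convertases Furin (-0.12, SE 0.0373, adjusted p = 0.0402) and Pcsk6 (-0.70, SE 0.178, adjusted p = 0.0165), which cut the prodomains of many metalloproteinases. The cathepsin Ctsb rose (0.13, SE 0.0350, adjusted p = 0.0225).

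Of 7 tested partners of ADAM10 and ADAM17, none was higher and 2 were lower. Rhbdf1, an iRhom that carries ADAM17 to the cell surface, had a log2 fold change of -0.10 (SE 0.0285 with an adjusted p of 0.0296), and Tspan5, a tetraspanin partner of ADAM10, of -0.11 (SE 0.0336 with an adjusted p of 0.0331). Of 12 tested inhibitors and clearance proteins other than TIMPs, 2 were higher. The membrane-anchored MMP inhibitor Reck rose from 37.0 ± 2.81 to 44.7 ± 4.74 CPM (log2 fold change 0.27 with an SE of 0.0626 and an adjusted p of 0.0107), and thrombospondin Thbs1 from 1158 ± 323 to 1819 ± 478 CPM (log2 fold change 0.65 with an SE of 0.172 and an adjusted p of 0.0195). The median of this list was 0.22. Of 7 other zinc metalloendopeptidases, Ece1, which makes endothelin, was called higher (0.20, SE 0.0418, adjusted p = 0.00800).

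Among 18 tested matrix substrates, 7 were called higher, beside 6.71% of all genes, and none lower, with a median of 0.14. The basement membrane collagen Col4a1 rose by 0.17 (SE 0.0396 with an adjusted p of 0.0120), fibronectin Fn1 by 0.33 (SE 0.0886 with an adjusted p of 0.0200) and nidogen Nid1 by 0.25 (SE 0.0684 with an adjusted p of 0.0217) on the log2 scale. Of 26 tested membrane proteins cut by ADAM10 or ADAM17, 2 were higher, the adhesion molecule Vcam1 (0.43, SE 0.0668, adjusted p = 0.00423) and the chemokine Cxcl16 (0.44, SE 0.105, adjusted p = 0.0123), and none was lower. None of the 7 AP-1 subunits, which activate many MMP genes, was called (median -0.13). Of these, 4 had an unadjusted p under 0.05, all with negative log2 fold changes, beside 29% of all genes in either direction. Counted over these 7 lists, 13 of 90 tested genes were higher and 5 were lower, and both counts were 0 once the cell cycle score entered the model. The count of higher genes was 7 without *APOE3* replicate 30 and 8 without *APOE4* replicate 41. The count of lower genes was 2 without *APOE3* replicate 26, 30 or 33 or *APOE4* replicate 41, 3 without *APOE3* replicate 28 or *APOE4* replicate 35, 37 or 40, 10 without *APOE3* replicate 31, and 2 without a filter on low counts.

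Promoters were read for the inhibitor Timp3 and its target Adam17, which moved in opposite directions. They were chosen with these directions known, and a relation between their changes was not tested. RefSeq promoter sequences (GRCm38.p6) were found for 52 of the 83 members, 25 of them tested and 5 of them called. Printed 5′ to 3′ are the bases just before the gene, for Timp3 chr10:86300162-86300371 (plus strand, 210 bases) and for Adam17 chr12:21373633-21373882 (minus strand, 250 bases). Capitals mark a GC box (GGGCGG on either strand), which the printed stretch of Timp3 lacks.
Timp3: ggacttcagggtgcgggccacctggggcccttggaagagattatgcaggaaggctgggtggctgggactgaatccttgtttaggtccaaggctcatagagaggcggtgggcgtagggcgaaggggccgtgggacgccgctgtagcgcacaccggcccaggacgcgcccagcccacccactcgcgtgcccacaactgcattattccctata
Adam17: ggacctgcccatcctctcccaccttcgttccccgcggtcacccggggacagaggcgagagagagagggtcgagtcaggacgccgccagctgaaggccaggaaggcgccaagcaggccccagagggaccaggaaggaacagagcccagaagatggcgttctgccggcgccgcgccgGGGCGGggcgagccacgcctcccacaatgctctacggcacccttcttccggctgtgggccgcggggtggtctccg

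In the 250 bases before the start, the GC box was present in all 5 called members with an entry (Adam17, Mmp15, Mmp28, Timp2 and Timp3) and in 21 of the 25 tested, against 58.5% of the 12220 promoters of tested genes and 32.7% of all 32851. That of Timp3 lies in the 40 bases next to the start that are not printed. The AP-1 letters TGANTCA were in 1 of the 25 (4.32% of promoters of tested genes), the E2F core TTCCCGC in 2, among them Timp2 (6.91%), and the CHR letters TTTGAA in none (10.5%), each searched on both strands. A match of letters is a description of the window and not evidence of binding.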

How the data were processed

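PolyA RNA from 16 cultures was sequenced as paired reads of 50 nt from libraries made with 100 ng of total RNA and 17 PCR cycles. The authors deposited raw read counts per gene, with no normalization; their submitters' processing notes name STAR, featureCounts and the builds mm10 and hg38, and versions, annotation release and strand setting are not given in the sources used here. Every column was matched to its sample by label (0 unmapped). Counts carry no molecular identifiers, so what depth says about precision covers only the counting error. Gene positions, symbols and exon lengths are from GENCODE mouse release 21, which holds 38872 of the identifiers when versions are ignored.

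The main test was run with edgeR 4.0.16 under R 4.3.3 (filterByExpr by genotype, TMM, quasi-likelihood F test, Benjamini-Hochberg adjustment over the 12481 genes tested, threshold 0.05). CPM are counts scaled to the TMM-normalized library size. SEs of log2 fold changes were derived from the F statistics. Effects within each sex came from 1 fit of 4 groups. Scores are means of log2 CPM (prior count 2), and correlations used exact permutation over all pairings, two-sided. Alternatives used DESeq2 1.42.0, limma 3.58.1 and sva 3.50.0. The fits were tested on simulated data. Python 3.11.15 served for tables and figures.

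Named genes are the called members, the 4 with the highest level per kilobase in each family, members known for roles in endothelium and brain, and up to 3 called genes per list of related genes with the smallest p. Adam8, Adam12, Adam33, Adamts6, Adamts7 and Mmp23, the fourth activation gene and the untested genes were named after their values were seen. Adam1a was named for its shared exon bases. Members and lists were chosen with earlier results of these data known.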

Additional observations from a re-analysis of the deposited data

Results flagged for a closer look

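Of 76 groups checked (38 tested members in 2 genotypes, 8 libraries each), 7 held a library whose gap to its nearest neighbour took more of the group's range than Dixon's critical value for 8 libraries, where chance gives about 1 in 20 groups. In *APOE3* replicate 25, Adam8 was at 5.68 CPM (next 3.95) and Timp1 at 38.1 CPM (next 24.0). In *APOE3* replicate 33, Timp4 was at 9.92 CPM (next 7.31). Among *APOE4* libraries, Adamts10 was at 73.2 CPM in replicate 36 (next 62.2), Adamtsl5 at 2.54 CPM in replicate 37 (next 1.18), Adamts7 was low at 17.4 CPM in replicate 38 (next 23.7), and Adamts4 was at 84.4 CPM in replicate 43 (next 53.5). Of these, Adamts10 is a called member, and its call held with replicate 36 left out.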

How the results depend on the processing

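The counts of 3 higher and 6 lower members were within 1.5 times of these values with the size factors of DESeq2, without a low-count filter, with a minimum of 10 counts in each library, with DESeq2's test, limma's voom, sex or 1 surrogate variable as a covariate, and GC content and length corrected (3 to 4 higher, 4 to 6 lower). In these fits 5.74% of all genes were called without a filter and 11.2% to 15.7% otherwise. With the cell cycle score in the model both counts were 0, beside 0% of all genes, and both counts over the related lists were 0. Leaving out each library gave 2 to 4 higher and 3 to 8 lower members, and 7 to 15 higher and 2 to 10 lower genes of the related lists. For these fits the share of all genes called is not given here. Without a filter, 2 of the related genes were lower. Within females the count of members went from 0 to 4 without a filter and to 4 with DESeq2, and from 0 to 5 with each library left out, 5 without *APOE3* replicate 31 and 2 without *APOE4* replicate 35. Within males, between the sexes and for the difference between sexes it was 0 throughout.

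Signs were compared only for 24 members, those picked by the naming rule above, and not for the other tested members. With the cell cycle score in the model, log2 fold changes changed sign for Adam15 (0.0078), Adamts1 (0.20), Adamts4 (0.14), Adamts5 (0.11), Adamts9 (0.16), Adamtsl3 (-0.057), Adamtsl4 (-0.047), Adamtsl5 (-0.082), Mmp14 (0.12), Mmp25 (-0.088) and Timp3 (0.0087). With limma's voom they changed sign for Adamtsl5 (-0.038) and Mmp25 (-0.0016). With each library left out, Adamtsl5 ran from -0.31 to 0.31, Mmp25 from -0.023 to 0.041 and Timp1 from -0.0046 to 0.27. The cause was not tested. Adamtsl1 had no value with at least 10 counts in every library. Replicate numbers differ between the genotypes. No paired analysis was possible because the groups compared share fewer than 2 numbers.

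Depth limits the scarce members. Of the 45 members below the filter, 21 had no count, and the other 24 had at most 14 counts in a library and were tested only without the filter.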
